A study of Mus musculus with 8 samples.

Results

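The genes described here encode enzymes of the methionine cycle and of transsulfuration: Gnmt, Cbs, Cth, Mat1a, Mat2a, Mat2b, Ahcy and Bhmt. Their probe sets were selected on gene symbol, while the pathway itself was chosen from measured values of the same comparison, in which Gnmt and Cbs were already known to be lower in transgenic prostate. The values of that comparison are therefore given for these genes as a description, and where a gene is said to pass or miss a threshold in them, that call supports nothing. Of the 8 genes, 7 were named by at least 1 probe set, among 12393 named genes measured in all. No probe set used named Mat2a, which is not analysed here. Cbs was named by 2 probe sets and each other gene by 1.

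The study set ventral prostate from 4 wild type FVB mouse samples, labelled as normal, against 4 transgenic FVB samples labelled mPIN, mouse prostatic intraepithelial neoplasia, a growth within the glandular epithelium. All samples were taken at 20 weeks of age. The transgene, in the words of the series, is an active allele of p110 beta, one of the catalytic subunits of PI3-kinase, and the labels give no further allele or treatment for either group. The labels name neither the promoter of the transgene nor its founder lines, and do not say whether each sample is a separate animal, so the errors reflect how far these samples differed, part of which may be technical.

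The methionine cycle turns methionine into S-adenosylmethionine, the methyl donor of most methylation reactions, then into S-adenosylhomocysteine and homocysteine, from which methionine is rebuilt. Transsulfuration takes homocysteine out of the cycle and passes its sulfur to cysteine, a precursor of glutathione and taurine. In the prostate, S-adenosylmethionine also feeds the synthesis of polyamines, which the gland secretes. Liver runs the whole pathway with isoforms of its own, and other tissues use parts of it.

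Gnmt and Cbs fell in transgenic prostate. The Gnmt level was 3.00-fold higher in wild type samples, and the Cbs level 3.85-fold higher by its brighter probe set and 3.00-fold by the other. The first enzyme spends methyl groups of S-adenosylmethionine on glycine, and the second commits homocysteine to transsulfuration. The other 5 genes measured, Mat1a, Mat2b, Ahcy, Bhmt and Cth, did not pass the threshold, an adjusted p under 0.05 in the limma fit over all probe sets. None of the 7 was called higher in that fit, and 0 of 7 were higher with an unadjusted p under 0.05. Over all 12393 genes, 4.98% were called lower and 5.99% higher. Nothing is read from the counts of 2 lower and 0 higher beside these shares, since the genes were proposed from this comparison.

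The promoters of the 2 genes that fell are shown because both lay well apart between the groups. Each stretch runs from 250 to 51 bases before the RefSeq transcription start, in build GRCm38.p6, and is written 5′ to 3′ on the gene's own strand. Gnmt lies at chr17:46729216-46729415 and Cbs at chr17:31637256-31637455, both on the minus strand. Capitals mark a match on either strand to one of 6 motifs: the CCAAT box, the GC box GGGCGG, the E-box CACGTG, the androgen receptor half-site AGAACA, the forkhead site GTAAACA and the ATF4 site TGATGNAA.
Gnmt: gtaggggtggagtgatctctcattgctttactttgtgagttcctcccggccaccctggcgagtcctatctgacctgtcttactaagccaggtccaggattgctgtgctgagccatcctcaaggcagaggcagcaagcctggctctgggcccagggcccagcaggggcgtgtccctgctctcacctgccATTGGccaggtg
Cbs: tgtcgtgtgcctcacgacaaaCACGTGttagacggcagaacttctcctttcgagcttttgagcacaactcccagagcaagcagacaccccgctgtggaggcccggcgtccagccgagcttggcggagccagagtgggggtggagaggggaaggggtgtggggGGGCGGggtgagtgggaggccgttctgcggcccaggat
The Gnmt stretch holds 1 CCAAT match, 62 to 58 bases before the start and on the opposite strand, where 28.4% of all 32851 RefSeq promoter windows of that length hold one. The Cbs stretch holds 1 GGGCGG match, in 24.6% of all windows, and 1 CACGTG match, in 4.34%. The 2 stretches share none of the 6 motifs. The androgen receptor half-site, the forkhead site and the ATF4 site, found in 13.2%, 2.58% and 2.72% of all windows, are not among the letters of either. Guanine and cytosine make up 60.5% of the Gnmt stretch and 64.5% of the Cbs stretch, against a median of 51.5% over all windows. These matches describe the letters of the reference and not sites in use.

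S-adenosylmethionine is made by methionine adenosyltransferases. Mat1a encodes the catalytic subunit typical of adult liver, and Mat2b a regulatory subunit of the form found in other tissues. The log2 values of Mat1a were 3.47, 3.52, 3.59 and 3.63 in wild type samples 1 to 4 and 3.44, 3.36, 3.69 and 3.67 in transgenic samples 1 to 4. All 8 values lay below the array medians, which ranged from 5.40 to 5.51, so they are close to what background alone can give. The groups overlapped, and the log2 difference, transgenic minus wild type, was -0.01 with a 95% interval from -0.24 to 0.22. At such low signal a change of the transcript could be missed.

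The log2 values of Mat2b were 8.48, 8.51, 8.27 and 8.07 in wild type and 8.02, 8.70, 8.59 and 8.33 in transgenic samples. Transgenic sample 1 was the lowest of all 8 and transgenic sample 2 the highest, so the transgenic values enclosed the wild type ones. The means were 8.33 ± 0.21 and 8.41 ± 0.30 (SD, n = 4 each). The log2 difference was 0.08 ± 0.16 (SE), with a 95% interval from -0.26 to 0.42.

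Gnmt encodes glycine N-methyltransferase, which transfers the methyl group of S-adenosylmethionine to glycine and yields sarcosine. It is abundant in liver, pancreas and prostate and is held to buffer the ratio of S-adenosylmethionine to S-adenosylhomocysteine. Its log2 values were 8.56, 8.11, 7.81 and 7.99 in wild type and 6.44, 6.53, 6.72 and 6.42 in transgenic samples. Every transgenic value lay below every wild type value, with 1.08 between the nearest values of the 2 groups, and all 8 lay above the array medians. The wild type samples were spread over 0.75 and the transgenic ones over 0.30. The means were 8.11 ± 0.32 and 6.53 ± 0.14 (SD, n = 4 each), and the log2 difference was -1.58 ± 0.15 (SE). In bulk tissue, fewer cells that express a gene and less of its RNA in each cell cannot be told apart.

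The products of Gnmt stand between the cycle and glycine breakdown. Of 12 measured genes of methyl group use and glycine metabolism, 3 rose, 0 fell and 9 missed the threshold, and the median log2 difference was -0.09 against -0.04 over all genes. Sardh, encoding the mitochondrial enzyme that takes the methyl group off sarcosine, had a log2 difference of -0.32 ± 0.11 (SE), which did not pass (limma adjusted p = 0.120). The 3 that rose were Dnmt1, encoding the maintenance DNA methyltransferase, by 0.52, Gldc, of the glycine cleavage system, by 0.46, and Dnmt3a, a de novo DNA methyltransferase gene, by 0.35 (limma adjusted p = 0.0250, adjusted p = 0.0307 and adjusted p = 0.0436). The groups did not overlap for any of these 3 probe sets, with gaps between 0.12 and 0.14. Each of the 3 calls was lost on leaving out some single samples. The log2 differences then stayed from 0.44 to 0.62 for Dnmt1, from 0.39 to 0.51 for Gldc and from 0.31 to 0.40 for Dnmt3a. Calls over all genes moved too, to between 359 and 693 lower and between 494 and 821 higher, against 617 and 742 with all samples. Between 0 and 3 of the list rose when 1 of the 8 samples was left out, with none left without wild type sample 3, transgenic sample 1 or transgenic sample 2. With a stromal score, defined below, as a covariate none of the 3 passed. The log2 differences of Dnmt1 and Gldc were about as large, 0.55 and 0.40, and that of Dnmt3a was 0.26 (limma adjusted p = 0.193 for the first, 0.333 for the second and 0.478 for the third). Calls were lost with this covariate over the whole table, which kept 247 lower and 323 higher genes. A second Dnmt1 probe set, above the array medians, gave 0.21 with overlapping groups (limma adjusted p = 0.259), and the mean of both, 0.36, passed (adjusted p = 0.0296). By contrast, the mean of the Dnmt3a probe sets gave 0.16 (adjusted p = 0.250). The suffix of the Dnmt1 probe set that rose marks probes that may also match other sequences.

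Ahcy encodes S-adenosylhomocysteine hydrolase, which splits the product of every such methyl transfer into homocysteine and adenosine. Its log2 values were 8.12, 8.09, 8.02 and 8.02 in wild type and 7.84, 8.08, 8.10 and 7.93 in transgenic samples. The 4 wild type values lay within 0.11 of each other, and 2 of the transgenic values, in samples 2 and 3, lay among them. The means were 8.07 ± 0.05 and 7.99 ± 0.13 (SD, n = 4 each). The log2 difference was -0.08 ± 0.10 (SE), with a 95% interval from -0.29 to 0.13, so a fall of more than 0.29 lies outside the interval.

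Adenosine, the other product of Ahcy, is removed by adenosine kinase, encoded by Adk, and by adenosine deaminase, encoded by Ada. Adk went from 10.66, 10.38, 10.27 and 10.25 in wild type to 9.11, 9.03, 8.82 and 8.84 in transgenic samples, and no values overlapped. The log2 difference was -1.44 ± 0.12 (SE), a level 2.71-fold higher in wild type (limma adjusted p = 1.87e-05). The suffix of the probe set used for Adk marks probes that may also match other sequences. The 3 other probe sets of Adk gave -0.93, which passed, and -0.19 and -0.17, which did not and lay below the array medians, so the mean of all 4 was -0.68. Srm, encoding spermidine synthase, a user of decarboxylated S-adenosylmethionine, fell by 1.03 ± 0.12 (SE), from 9.76 ± 0.19 to 8.73 ± 0.15 (SD, n = 4 each; limma adjusted p = 0.000254). These were the 2 of 10 measured genes of methionine salvage and adenosine use that fell, while 0 rose and 8 did not pass. The list median was 0.01. Ada, named after its values were seen, had a log2 difference of 0.39 ± 0.12 (SE), with all transgenic values above all wild type ones. It did not pass (limma adjusted p = 0.0705), and its wild type values lay below the array medians. The 2 genes of Ahcy-like proteins, Ahcyl1 and Ahcyl2, had log2 differences of -0.02 ± 0.09 and 0.15 ± 0.12 (SE). The other Ahcyl2 probe sets, with all values above the array medians, went in opposite directions. They gave 0.41 with the groups apart and -0.36 with overlap, and neither passed (limma adjusted p = 0.0580 and adjusted p = 0.117).

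**Figure D1:**
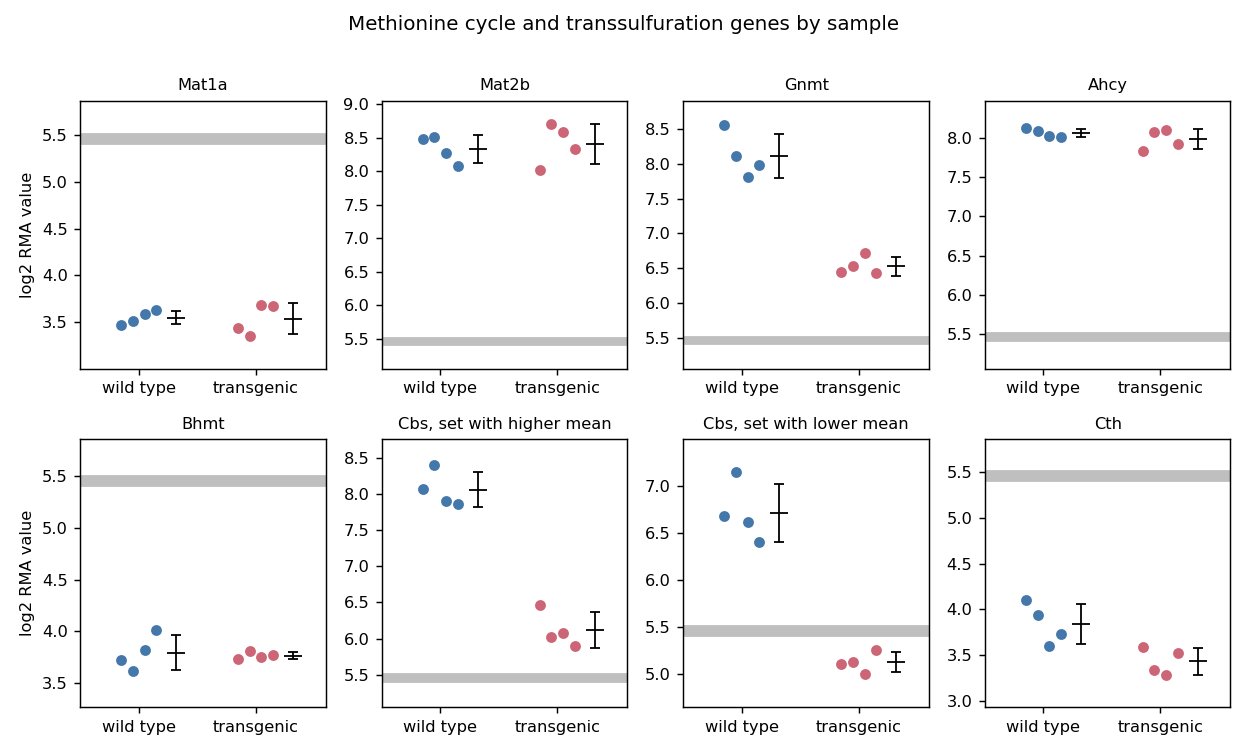
Log2 RMA values (vertical axis, a scale of its own in each panel) of the 8 probe sets of the 7 measured genes, with wild type samples 1 to 4 and transgenic samples 1 to 4 from left to right; bars show the mean and SD, n = 4, and the grey band the range of array medians, 5.40 to 5.51. The groups stand apart for Gnmt and both Cbs probe sets, nearly touch for Cth and overlap for Mat1a, Mat2b, Ahcy and Bhmt.

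Bhmt encodes betaine-homocysteine methyltransferase, which rebuilds methionine from homocysteine in liver and kidney. Its log2 values were 3.72, 3.62, 3.82 and 4.02 in wild type and 3.74, 3.81, 3.75 and 3.77 in transgenic samples. All lay below the array medians, and every transgenic value lay within the wild type range. The log2 difference was -0.03 ± 0.10 (SE), with a 95% interval from -0.26 to 0.20. Bhmt2, its homologue, was also below the array medians in all samples, with a log2 difference of -0.09.

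The route of remethylation used by most tissues takes its methyl group from folate. Of 9 measured genes of remethylation and the folate cycle, 1 fell, 0 rose and 8 missed the threshold, and the median log2 difference was -0.09. Mthfd2, encoding a mitochondrial folate enzyme, went from 8.42, 8.03, 7.86 and 8.07 in wild type to 6.97, 6.95, 7.17 and 7.17 in transgenic samples. All transgenic values lay below all wild type ones, and the log2 difference was -1.03 ± 0.13 (SE; limma adjusted p = 0.000333). A second Mthfd2 probe set gave -0.95 (limma adjusted p = 0.00559). Mtrr, encoding the reductase that reactivates methionine synthase, had a log2 difference of -0.09 ± 0.11 (SE), and Shmt2 and Shmt1, encoding serine hydroxymethyltransferases, -0.24 ± 0.12 and 0.08 ± 0.16.

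Cbs encodes cystathionine beta-synthase, which joins homocysteine to serine and is the entry to transsulfuration. By the brighter of its probe sets, its log2 values were 8.07, 8.41, 7.91 and 7.86 in wild type and 6.47, 6.03, 6.08 and 5.90 in transgenic samples. The nearest values of the 2 groups were 1.40 apart. The means were 8.06 ± 0.25 and 6.12 ± 0.24 (SD, n = 4 each), and the log2 difference was -1.94 ± 0.15 (SE). By the other probe set the values were 6.68, 7.14, 6.62 and 6.41 in wild type and 5.11, 5.13, 4.999 and 5.26 in transgenic samples. The groups were apart here too, by 1.15, but all 4 transgenic values lay below the array medians, so this difference, -1.59 ± 0.14 (SE), may understate the change. Wild type sample 2 was the highest of its group by both probe sets. The suffixes of both probe sets mark probes that match more than 1 transcript, for the brighter set possibly transcripts of other genes.

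Cth encodes cystathionine gamma-lyase, which completes transsulfuration by releasing cysteine. Its log2 values were 4.10, 3.94, 3.60 and 3.73 in wild type and 3.59, 3.34, 3.28 and 3.52 in transgenic samples. Every transgenic value was below every wild type value, but the nearest, in transgenic sample 1 and wild type sample 3, were only 0.015 apart. All 8 values lay below the array medians. The log2 difference was -0.41 ± 0.13 (SE), with a 95% interval from -0.69 to -0.13, and it did not pass the threshold over all probe sets. Counting Cth, the groups did not overlap for 3 of the 7 genes, Gnmt, Cbs and Cth, each with the transgenic samples lower, where this held for 8.2% of all 12393 genes. Under quantile and cyclic loess normalization the count was 2 of 7. Nothing is read from these counts beside that share, since the pathway was chosen from the values of Gnmt and Cbs.

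**Figure D2:**
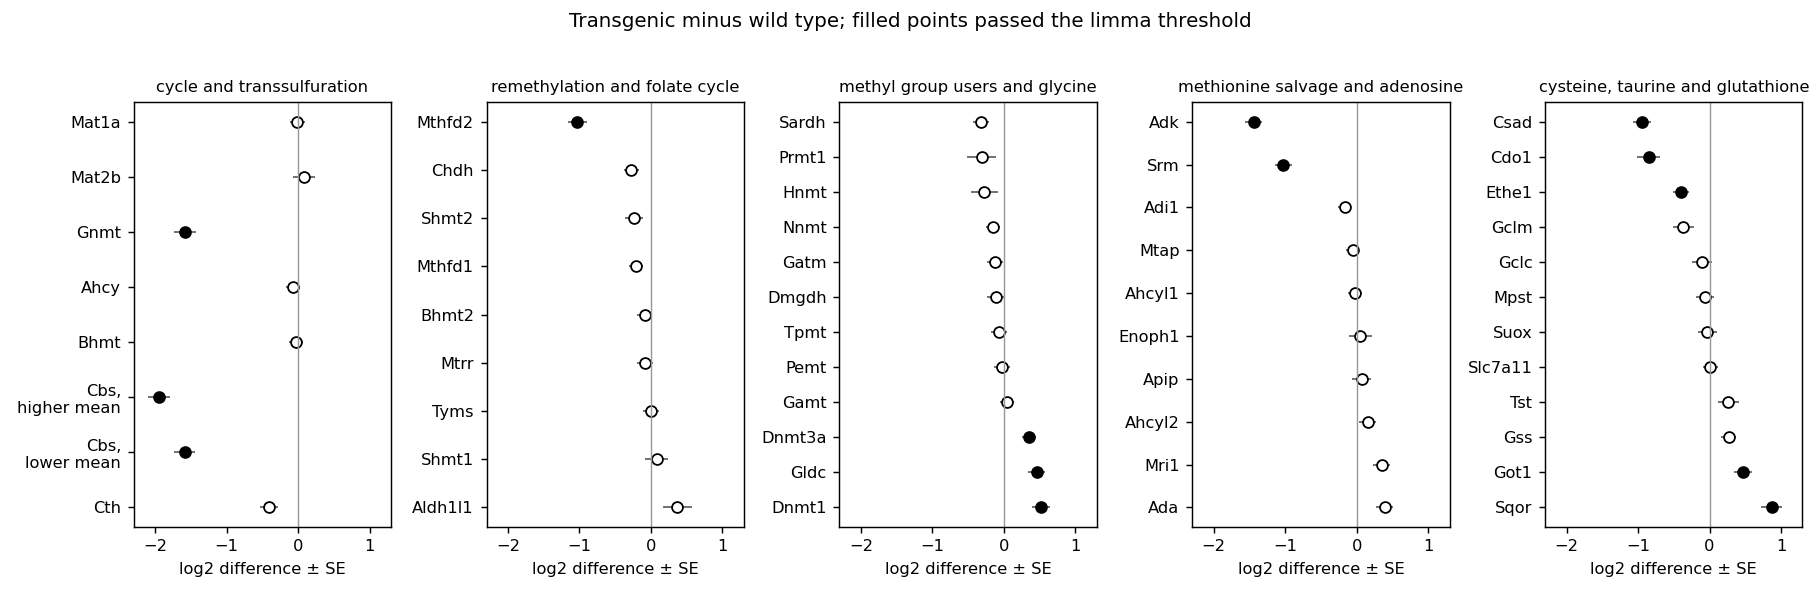
Log2 differences, transgenic minus wild type, with the SE from limma as horizontal bars, for the 8 probe sets of the pathway and for the measured genes of 4 neighbouring lists; filled points had an adjusted p under 0.05 over all probe sets. Gnmt and both Cbs probe sets lie between -1.94 and -1.58, and the most negative value of the neighbouring lists is that of Adk at -1.44. Nothing is read from this order, since the pathway was chosen from the values of Gnmt and Cbs.

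Downstream of Cth, cysteine is oxidised to taurine or built into glutathione. Of 12 measured genes of these steps, 2 rose, 3 fell and 7 missed the threshold, and the median log2 difference was -0.05. Both genes of taurine synthesis from cysteine in the list fell: Csad, encoding the decarboxylase, by 0.95 ± 0.12 (SE), and Cdo1, encoding cysteine dioxygenase, by 0.85 ± 0.16 (limma adjusted p = 0.000482 and adjusted p = 0.00626). Csad was between 7.94 and 8.33 in wild type and between 6.94 and 7.33 in transgenic samples. Cdo1 was between 5.66 and 6.42 in wild type and between 5.01 and 5.49 in transgenic samples, most of the latter below the array medians. Once the stromal score was added to the fit, the log2 difference of Cdo1 was -0.78, close to the -0.85 without it. The call was then lost (limma adjusted p = 0.130).

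Sqor, encoding the mitochondrial enzyme that oxidises hydrogen sulfide, a product that Cbs and Cth can form, rose by 0.87 ± 0.14 (SE; limma adjusted p = 0.00257). It was between 9.02 and 9.60 in wild type and between 9.89 and 10.38 in transgenic samples. Its second probe set, below the array medians throughout, gave -0.09, and the mean of the 2 was 0.39 (adjusted p = 0.0253). Ethe1, which acts after Sqor and was named after its values were seen, fell by 0.39, and Got1, encoding an aminotransferase of cytosol, rose by 0.47 (limma adjusted p = 0.0476 and adjusted p = 0.0375). Both calls were lost on leaving out single samples. Ethe1 missed the threshold without any 1 of 7 samples, all but transgenic sample 1 (limma adjusted p up to 0.146). Got1 missed it without any 1 of 6, all but wild type samples 1 and 3 (limma adjusted p up to 0.113). The log2 differences stayed from -0.46 to -0.32 for Ethe1 and from 0.36 to 0.54 for Got1. Once the stromal score was added, the log2 difference of Got1 was 0.25 and that of Ethe1 -0.45, and neither passed (limma adjusted p = 0.593 and adjusted p = 0.231). The rate-limiting enzyme of glutathione synthesis has subunits encoded by Gclc and Gclm, whose log2 differences, -0.11 ± 0.14 and -0.37 ± 0.15 (SE), did not pass. The transcript of the cystine importer, Slc7a11, was below the array medians in all samples.

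**Figure D3:**
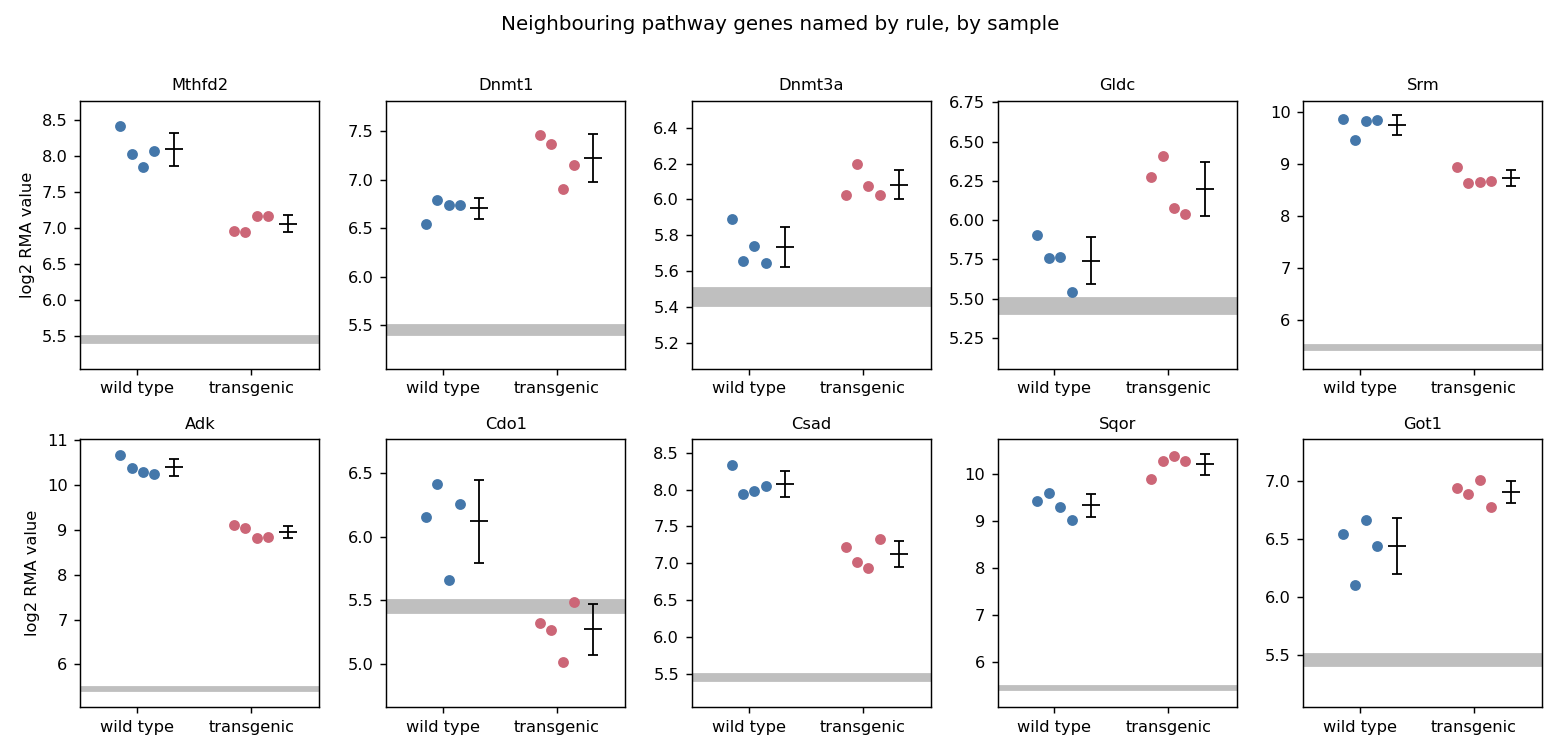
Log2 RMA values by sample of the 10 genes of neighbouring reactions named by rule, each panel with a scale of its own; bars show the mean and SD, n = 4, and the grey band the range of array medians. Transgenic values lie below all wild type values for Mthfd2, Srm, Adk, Cdo1 and Csad and above them for Dnmt1, Dnmt3a, Gldc, Sqor and Got1, with gaps from 0.11 for Got1 to 1.14 for Adk.

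Over the neighbouring reactions together, 43 of 51 listed genes were measured, of which 6 fell, 5 rose and 32 did not pass. The counts of lower and higher genes are to be read against 4.98% and 5.99% over all genes, and the lists were drawn up with earlier results of these data known. Mthfd2 and Srm belong as well to serine and folate metabolism and to polyamine synthesis.

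The pattern of Gnmt over the 8 samples was most like that of Trabd, with a Pearson correlation of 0.997 among 6975 genes compared, followed by Adh1, Mthfd2, Qtrt1 and Asrgl1, with correlations from 0.986 to 0.989. Centred within each group, the same genes gave correlations with Gnmt from 0.81 for Qtrt1 to 0.96 for Trabd. The genes most like Cbs were Cryzl1, Maged1, Defb10, Aldh3a2 and Srp68, with correlations from 0.988 to 0.992 over the 8 samples and from 0.68 to 0.95 within groups. These genes were picked for the correlation and share the arrays and the group difference, so the values describe them and carry no test. Gnmt and Cbs shared none of these 5 genes. Their own correlation within groups was 0.17 over the 8 samples, and that of the 2 Cbs probe sets was 0.56. Mat2b and Ahcy, neither of which passed the threshold, had a correlation of 0.93 within groups. It was the largest among all pairs of the measured genes and is printed for its size, so it carries no test either.

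The labelled tissue was checked against its markers. Pbsn, Msmb and Spink1, encoding secreted proteins of mouse prostate, were above 10 on the log2 scale in every sample, and the 4 measured hepatocyte markers had list means from 4.43 to 4.70 in wild type and from 4.46 to 4.68 in transgenic samples. Alb, Apoa1 and Cps1 were below the array medians in every sample, while Ttr, from 5.19 to 5.54, was not. Some secretory and some stromal transcripts were lower in transgenic samples, as Gnmt and Cbs were. Pbsn and Msmb fell, with log2 differences of -1.28 and -1.72 (limma adjusted p = 0.00361 and adjusted p = 0.00592), while Spink1, at -0.33, did not pass.

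Of 9 measured luminal markers 5 rose and 0 fell, with list means from 10.15 to 10.33 in wild type and from 10.79 to 10.85 in transgenic samples. Of 9 basal markers 5 fell and 0 rose, with list means from 6.12 to 6.28 and from 5.60 to 5.71. In 3 of the 9, among them Trp63, which fell, all values lay below the array medians. The marker counts stand beside 4.98% lower and 5.99% higher over all genes. Of 8 smooth muscle markers 2 fell and of 8 fibroblast markers 2 fell, with 0 higher in both, and list means of smooth muscle from 8.78 to 9.56 and from 8.37 to 8.80 and of fibroblasts from 6.92 to 8.15 and from 6.72 to 6.93. Of 6 macrophage markers 1 rose and 0 fell: Mrc1, encoding the mannose receptor, rose by 2.27 ± 0.24 (SE; limma adjusted p = 0.000106), with the nearest values of the groups 1.36 apart, while Adgre1, Cd68, Csf1r, Cd14 and Itgam, between -0.27 and 0.04, did not pass. The macrophage list means were 5.61 to 6.26 in wild type and 6.19 to 6.32 in transgenic samples. Of 6 measured T and B cell markers and 5 endothelial markers, 0 passed in limma and 0 had an unadjusted p under 0.05. The stromal score of a sample averages the log2 values of both stromal lists after each gene is centred, and it was 0.29 ± 0.43 for wild type and -0.29 ± 0.12 for transgenic samples (SD, n = 4 each; two-sided exact permutation p = 0.0286, the smallest the 8 samples allow). With this score as a covariate the log2 difference was -1.74 for Gnmt and -1.81 for Cbs, against -1.58 and -1.94 without it. The score ran from -0.15 to 0.85 in wild type and from -0.46 to -0.18 in transgenic samples. Because these ranges do not overlap, the fit cannot fully separate stroma from genotype. The 3 prime minus 5 prime difference of the Gapdh and beta actin controls, a sign of RNA quality, was 1.34 to 1.56 in wild type and 0.97 to 1.40 in transgenic samples. The part of stromal, secretory, luminal and basal cells, of Mrc1-expressing cells and of RNA quality in the falls of Gnmt and Cbs was not tested.

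**Figure D4:**
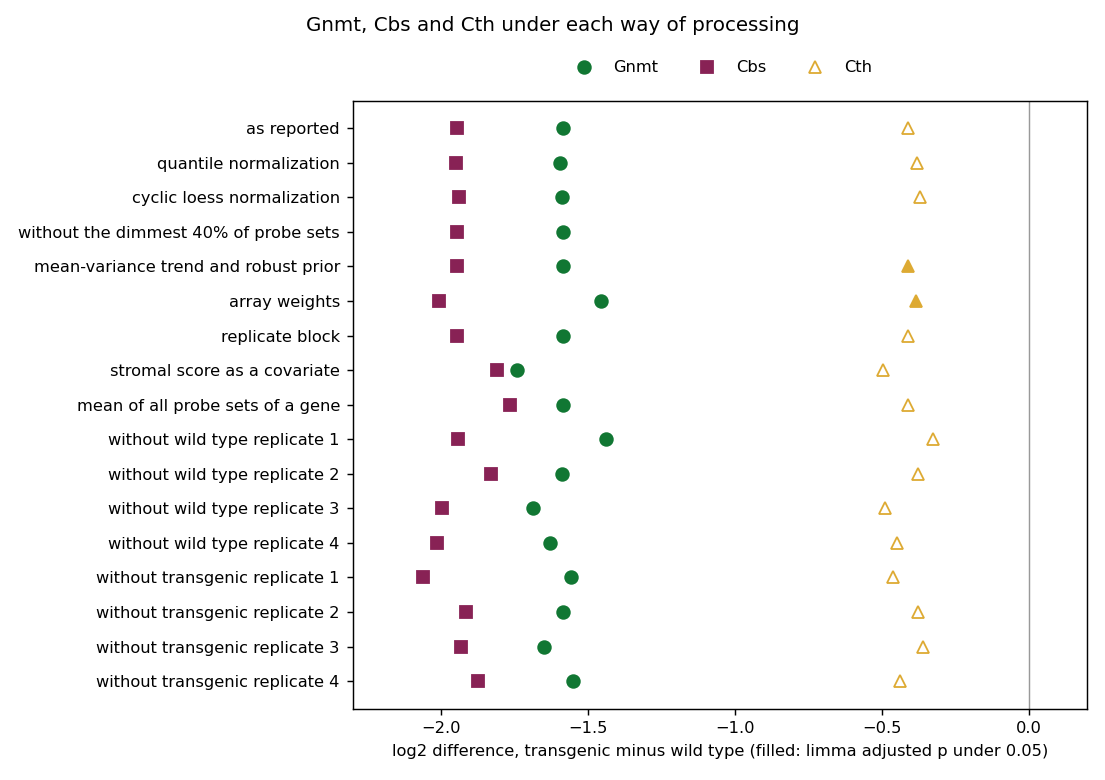
Log2 differences of Gnmt, Cbs and Cth, transgenic minus wild type, as reported and under each of 16 alternatives; filled symbols had a limma adjusted p under 0.05, and Cth has no value without the dimmest 40% of probe sets. Gnmt stays between -1.74 and -1.44 and Cbs between -2.06 and -1.77, while Cth, between -0.49 and -0.32, passed under 2 alternatives.

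The ranges of Gnmt and Cbs show how far these settings move values by which the pathway was chosen, and nothing is read from their calls. Cth passed with a mean-variance trend and with array weights (adjusted p = 0.0466 and adjusted p = 0.0416, over a range up to 0.237) and under none of the other 13 that gave it a value. Mat1a, Mat2b, Ahcy and Bhmt passed under none.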

How the data were processed

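Total RNA was taken from 8 ventral prostate samples, and biotin-labelled material was hybridised to Affymetrix mouse arrays, 1 per sample. The authors' deposited log2 values come from RMA, as the submitters' processing notes record without a version; its background correction and quantile normalization remove any change common to all transcripts. The number of arrays limits precision. Of the probe sets, 64 controls were left out and 22626 tested. Names came from the platform annotation, with symbols updated through RefSeq gene identifiers (20380 with 1 symbol, 691 with several, 1555 with none). The probe set with the highest mean stands for its gene.

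Transgenic and wild type samples were compared over the whole table in limma 3.58.1 (lmFit, eBayes; R 4.3.3), with Benjamini-Hochberg adjustment over 22626 probe sets and a threshold of 0.05. The fit was tested on simulated data. The members and lists were chosen with earlier results of these data known. All members are named; of each list, up to 4 genes past the threshold by size, or the one with the smallest p; for Gnmt and Cbs, the 5 most correlated genes above the median signal; other genes printed were chosen after their values were seen. The 16 alternatives changed normalization, filter, variance model, weights, probe set choice, covariates (stromal score, replicate block) or left out a sample. Promoter sequences are RefSeq's (GRCm38.p6); 5 of the 7 measured genes had one. Per the labels, replicate numbers are shared between groups, but same-numbered samples did not deviate together, so the main fit has no block.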

Additional observations from a re-analysis of the deposited data

Results flagged for a closer look

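In 2 of 36 groups of 4 values examined, 1 sample stood apart from the other 3 by more than Dixon's test allows at 95%, where chance gives about 1 group in 20. Both concern Srm. Wild type sample 2 was at 9.47, below the 9.84 to 9.87 of the others, and transgenic sample 1 was at 8.95, above the 8.64 to 8.68 of the others. Each lay toward the other group. Leaving out each sample gave log2 differences of Srm from -1.12 to -0.99. No value of Gnmt, Cbs, Cth, Mat1a, Mat2b, Ahcy or Bhmt stood apart in this way.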

How the results depend on the processing

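Of the 7 measured genes 2, Gnmt and Cbs, were called lower and 0 higher, and Cth made 3 lower with a mean-variance trend and with array weights; the pathway was chosen from this comparison, so these counts support nothing. The groups were apart for 3 with each sample left out and with the mean of a gene's probe sets, but for 2 under quantile and under cyclic loess normalization and without the dimmest 40% of probe sets, which left Cth out. Some small differences changed sign without passing: Mat1a became 0.024 under quantile normalization, 0.026 under cyclic loess and 0.030 with the stromal score, Bhmt became 0.012 and 0.011 under these normalizations, and leaving out each sample gave ranges from -0.060 to 0.050 for Mat1a, from -0.017 to 0.21 for Mat2b and from -0.087 to 0.045 for Bhmt. In the remethylation and folate list, 2 genes in place of 1 were lower under quantile and under cyclic loess normalization, and leaving out each sample gave 0 to 1 higher. In the list of methyl group users, 1 was higher with the replicate block and 0 with the stromal score in place of 3, with 0 to 3 when each sample was left out. In the salvage list 1 in place of 0 was higher with array weights. In the cysteine list 1 was lower and 1 higher with the stromal score, in place of 3 and 2, and 1 to 2 were higher when each sample was left out. The causes were not tested. The stromal score difference, -0.57, was -0.48 from smooth muscle and -0.67 from fibroblast markers alone (exact permutation p = 0.0571 for each). Whether the replicate numbers pair the samples cannot be settled with so few. Same-numbered samples had correlations of their deviations from -0.30 to 0.34. Wild type sample 4 and transgenic sample 4 correlated best with each other, but not every sample did so with its own number. The block left 486 lower and 599 higher genes of 617 and 742, and with it Dnmt1, Dnmt3a and Ethe1 missed the threshold (limma adjusted p = 0.0584, 0.103 and 0.0768). Signal limits Mat1a, Bhmt and Cth, whose values lay below the array medians.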
